A study of Mus musculus with 36 samples.

Results

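Adgre1, Cd5l, Lyz2, Ctss and Cd14 are 5 genes by which macrophages are followed in liver tissue. They are described here across the 12 groups of a mouse study of diet, sex and loss of Cyp51, an enzyme of cholesterol synthesis. The genes were picked by symbol, older aliases included (Adgre1 was once called Emr1), and each was read from its row with the highest mean among rows carrying a single gene symbol. All 5 of the 5 had exactly 1 such row, out of 19664 genes measured, and no filter on low values was applied to them. Cd14 lay near the middle of the array's range, with 52.3% of genes below its mean. The share of genes with a lower mean was 83.7% for Adgre1, 85.2% for Ctss, 93.2% for Cd5l and 96.1% for Lyz2.

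The 36 livers came from 36 mice of a mixed 129/Pas (10%) and C57BL/6J (90%) background, 3 mice in each combination of 3 diets, 2 genotypes and 2 sexes. LKO mice carried a liver-specific knockout of Cyp51, and LWT mice were their control littermates. The sources used here do not name what drove the deletion. From weaning at 3 weeks of age the mice ate for 16 weeks 1 of 3 diets, which were standard chow, low in fat and without cholesterol (LFnC), a high-fat diet free of cholesterol (HFnC) and a high-fat diet with 1.25% cholesterol by weight (HFC). They were thus 19 weeks old when they were fasted for 5 h and killed. The chow and the high-fat diets came from different makers, so HFnC against LFnC covers every difference between these feeds. In all, 136 mice were fed in the study. RNA was hybridised to Affymetrix arrays, 1 liver per array, and all levels below are log2 intensities, so a difference of 1 is a doubling. The number of mice limits the precision.

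Cyp51 itself was lower in every LKO liver than in every LWT liver on the same diet. The hepatocyte product Alb averaged 14.2 over the 36 arrays, and of 7 hepatocyte markers 1 was lower and none higher in LKO on LFnC. Pancreatic acinar genes, which liver should not express, had a mean centred level from -1.74 to 4.43 over the arrays. That level differed between replicates in some groups, and stayed between -1.49 and -1.28 in LWT males on LFnC and HFnC. In HFC male LWT mice, replicates 1 and 2 stood apart from replicate 3 in Lyz2, Ctss and Cd14, and results that rest on them are given with and without them.

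Kupffer cells are the resident macrophages of the liver and sit along its sinusoids. They take up particles, dying cells and bacterial products arriving from the gut. When the liver is injured or overfed, monocytes can enter from the blood and become macrophages that carry some, but not all, of the resident genes. Adgre1 encodes an adhesion receptor on the surface of mature mouse macrophages of either origin. Cd5l, also called AIM, is a protein secreted by resident tissue macrophages. Lyz2 encodes lysozyme M, an antibacterial enzyme of monocytes, macrophages and neutrophils. Ctss encodes cathepsin S, a lysosomal protease that trims the invariant chain so that class II molecules can be loaded. Cd14 is the coreceptor that hands endotoxin to Tlr4 and Ly96.

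The stretch of 250 bases upstream of the start is shown for 3 of the 5 genes, taken from the RefSeq promoter table (GRCm38.p6). The search left out a chromosome and returned no promoter for Adgre1 or Cd14. A gene on the chromosome left out could still be in the table. The 3 genes shown are those that the search returned. They set Cd5l, whose level in LKO stayed close to that in LWT on LFnC, beside Ctss and Lyz2, which rose together. Each runs 5′ to 3′ on the strand of its gene. Capitals mark the letters GAGGAA on either strand, a purine box of the kind bound by PU.1 (the product of Spi1), and the letters GAAANNGAA, a paired box of the kind bound by interferon regulatory factors. Cd5l lies at chr3:87357631-87357880 on the plus strand, Ctss at chr3:95526536-95526785 on the plus strand and Lyz2 at chr10:117282273-117282522 on the minus strand.
Cd5l: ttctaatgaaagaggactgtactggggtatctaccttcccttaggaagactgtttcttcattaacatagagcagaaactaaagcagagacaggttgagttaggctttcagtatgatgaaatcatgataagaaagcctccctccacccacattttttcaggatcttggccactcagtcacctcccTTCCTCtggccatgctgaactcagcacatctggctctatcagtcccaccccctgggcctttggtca
Ctss: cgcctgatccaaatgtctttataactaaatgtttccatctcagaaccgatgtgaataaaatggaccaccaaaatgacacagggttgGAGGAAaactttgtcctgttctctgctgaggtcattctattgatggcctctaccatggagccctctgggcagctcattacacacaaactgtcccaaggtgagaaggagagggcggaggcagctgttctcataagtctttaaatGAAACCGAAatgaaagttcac
Lyz2: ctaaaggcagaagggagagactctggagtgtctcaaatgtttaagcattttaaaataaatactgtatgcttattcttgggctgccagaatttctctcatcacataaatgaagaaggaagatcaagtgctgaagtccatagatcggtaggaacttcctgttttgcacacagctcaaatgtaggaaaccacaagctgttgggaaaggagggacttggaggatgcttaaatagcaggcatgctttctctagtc

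In Cd5l the purine box was read on the opposite strand, from 66 to 61 bases before the start. In Ctss it lay 164 to 159 bases before the start, and the GAAANNGAA pair lay 21 to 13 bases before it. The 250 bases of Lyz2 held neither. Of 32851 promoters of this length, 23.3% held GAGGAA and 7.1% held GAAANNGAA on either strand. TTGCNNAA (in 9.6% of promoters) and TGANTCA (in 6.7%) were in none of the 3. CANNTG, found in 66.2% of promoters, occurred 1 time in Cd5l, 2 times in Ctss and 3 times in Lyz2, and TATAAA, found in 12.4%, occurred 1 time, in Ctss on the opposite strand. None of these matches overlapped another motif. A match describes the letters only.

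On LFnC, Cd14, Lyz2 and Ctss were higher in LKO than in LWT livers, by 4.13-fold, 2.62-fold and 2.23-fold, while Cd5l and Adgre1 were not called. Called means a limma p under 0.05 after Benjamini-Hochberg adjustment across the 19664 genes. These 3 of 5 members stand against a background of 33.4% of all genes called in this comparison. Because whole liver was measured, fewer or more cells of a type and less or more RNA per cell cannot be told apart, here or in any later comparison.

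Cd14 read 7.10 at the lowest, 7.46 at the median and 7.84 at the highest in the 6 LWT mice on LFnC, and 8.46, 9.78 and 10.1 in the 6 LKO mice. The lowest LKO liver thus lay above the highest LWT liver. How many of all genes separated the genotypes in this way was not counted, for this gene or those below. The increase was 2.05 (SE 0.25, adjusted p = 6.34e-06). LKO females were at 10.06, 9.79 and 10.03 and LKO males at 8.46, 9.77 and 8.87, so the female livers were the closer together.

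Lyz2 read 10.8, 11.1 and 11.6 (lowest, median, highest) in LWT and 11.9, 12.6 and 13.1 in LKO on LFnC, again with no overlap. It rose by 1.39 (SE 0.20, adjusted p = 3.35e-05). The neighbouring gene Lyz1 is a near-identical copy, and the probe sets may read each other's transcripts. Lyz1 ran from 7.66 to 8.48 in LWT and from 8.18 to 10.3 in LKO on this diet, so the Lyz2 value stands for its probe set.

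Ctss read 9.24, 9.52 and 10.0 in LWT and 10.1, 10.7 and 11.3 in LKO on LFnC, and the groups did not overlap. Its increase was 1.16 (SE 0.20, adjusted p = 0.000146). For these 3 genes the call held whichever of the 12 mice on this diet was left out, with changes from 1.86 to 2.19 for Cd14, from 1.27 to 1.501 for Lyz2 and from 0.997 to 1.29 for Ctss. An exact permutation test of each within sex, two-sided, gave p = 0.005, the smallest that its 400 arrangements allow.

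Cd5l read 10.5, 10.8 and 11.3 in LWT and 10.5, 10.9 and 11.2 in LKO on LFnC, and the genotypes overlapped throughout. Its difference was 0.03 (SE 0.10, adjusted p = 0.809), with a 95% interval from -0.17 to 0.23. The sign was not stable, since it was -0.03 with each array centred on its median. Changes larger than that interval were thus not seen for this resident macrophage product.

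Adgre1 read 9.22, 9.69 and 10.3 in LWT and 9.57, 10.0 and 10.5 in LKO on LFnC, with 1 LKO liver above all LWT livers. The difference was 0.26 (SE 0.13, adjusted p = 0.105). It ran opposite ways in the sexes, at 0.68 in males and -0.15 in females. Male LKO livers were at 9.93, 10.5 and 10.1 against 9.75, 9.22 and 9.54 in male LWT livers. The difference of -0.84 between the sexes (SE 0.26) had an unadjusted p of 0.00291 and an adjusted p of 0.298 in limma, so it was not called. Within single batches, with 1 mouse a group and no test, it was 0.38, -1.96 and -0.93, so 1 of the 3 ran the other way. Of all genes, 0% were called for this genotype by sex difference on LFnC, 0 of 19664, while 1684 had an unadjusted p under 0.05. Among the other members, the difference between the sexes was -0.99 for Lyz2 (adjusted p = 0.455) and -0.67 for Ctss (adjusted p = 0.663). It was of the other sign for Cd14 (0.495, adjusted p = 0.841) and Cd5l (0.05, adjusted p = 0.968). Lyz2 was higher in LKO in both sexes, by 0.89 in females and 1.885 in males.

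**Figure D1:**
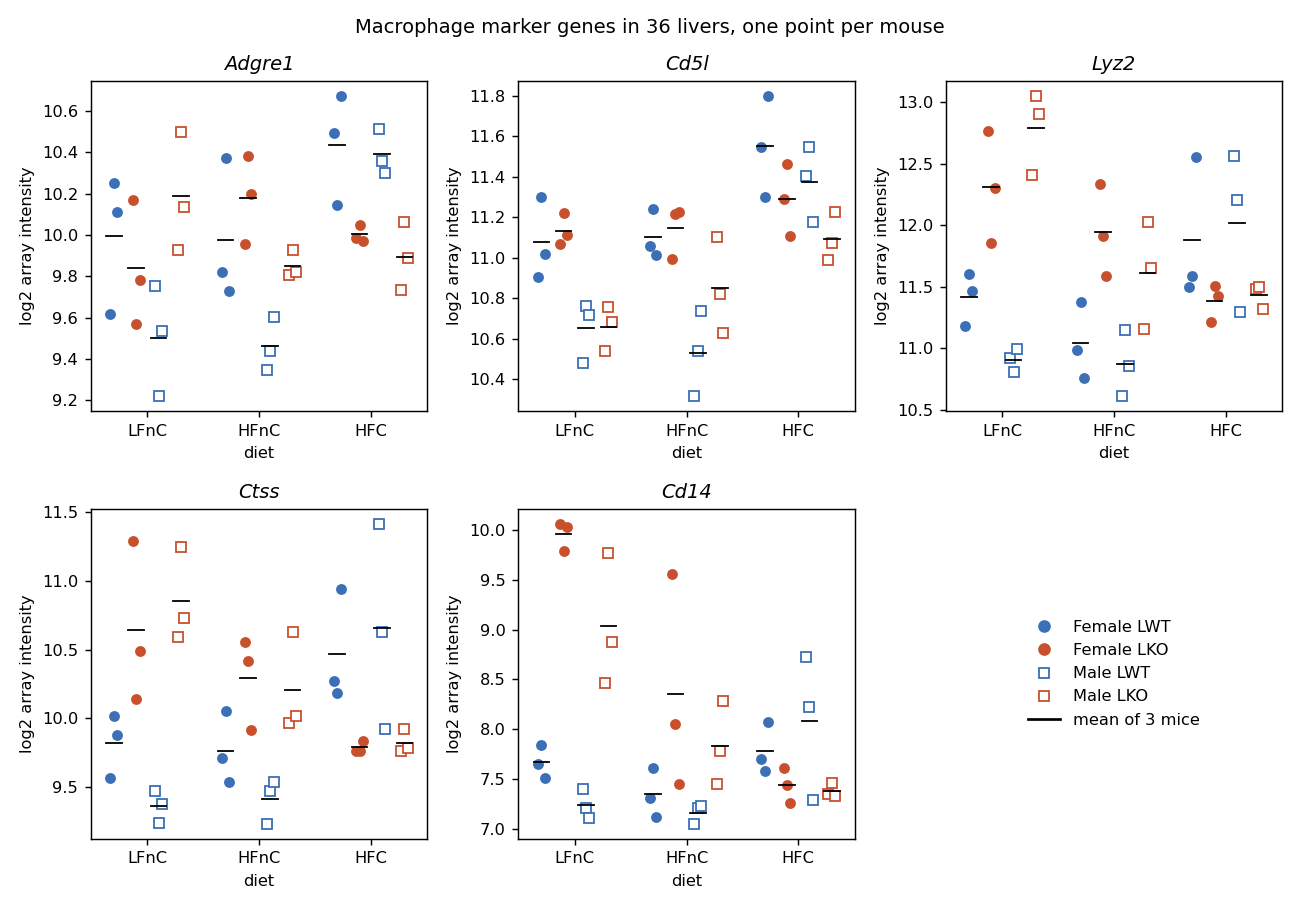
Log2 array intensity (vertical axes, scaled per gene) of the 5 macrophage genes by diet (horizontal axes), 1 point per mouse, with filled circles for females, open squares for males, blue for LWT, orange for LKO and a bar at the mean of 3 mice. On LFnC all 6 LKO livers lie above all 6 LWT livers for Lyz2, Ctss and Cd14, and on HFC all 6 LKO livers lie below all 6 LWT livers for Adgre1 and, with 9.919 against 9.921 at the closest, for Ctss. Such separation was not counted over all genes.

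The other genes of the resident and recruited lists moved in different directions on LFnC, where 33.4% of all genes were called. Of 6 resident Kupffer cell markers besides Cd5l, 3 fell, none rose and 3 were not called, with a median change of -0.29 against -0.07 over all genes. Cd163, a scavenger receptor for haemoglobin, fell by 1.60 (SE 0.32, adjusted p = 0.000646). Timd4, which binds phosphatidylserine on dying cells, fell by 0.99 (SE 0.20, adjusted p = 0.000673). Clec4f, a lectin found on Kupffer cells, fell by 0.47 (SE 0.17, adjusted p = 0.0373). Vsig4, a complement receptor, and Marco, a scavenger receptor, were at -0.08 and 0.01 and were not called. The value of Marco joined opposite differences in the sexes. Its LKO and LWT means were 7.95 and 7.33 in females and 6.735 and 7.34 in males. None of these 6 markers was called for genotype by sex on LFnC.

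Of 7 measured markers of monocytes and recruited macrophages, 6 rose on LFnC and none fell, with a median of 0.72. Ccr2, the receptor that draws monocytes out of marrow, rose by 2.00 (SE 0.31, adjusted p = 4.91e-05), Itgam (CD11b) by 1.32 and Cx3cr1 by 1.15. All 6 of the measured genes of scar and lipid associated macrophages rose as well, with a median of 1.98, from Trem2 at 0.75 to Gpnmb at 3.66. Among 10 genes shared by most macrophages 7 rose and none fell (median 0.40). Cd68 was at 0.95, whereas Csf1r, the receptor for the growth factor that macrophages depend on, was at 0.29 (adjusted p = 0.0571).

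Seen mouse by mouse, Ccr2 ran from 6.14 to 6.56 in LWT and from 7.52 to 9.30 in LKO on LFnC, with no overlap. Clec4f ran from 10.5 to 10.9 in LWT and from 10.1 to 10.4 in LKO, also with no overlap and in the opposite direction. Timd4 was lowest in LKO males, at 7.47, 7.65 and 7.50, against 8.86, 8.75 and 8.72 in LWT males. With Lyz2 and Cd5l each centred on its own mean over the 36 arrays, Lyz2 minus Cd5l lay between -0.55 and -0.15 in LWT and between 0.04 and 1.70 in LKO on LFnC. On HFC the same quantity ran from -0.65 to 0.57 in LWT and from -0.67 to -0.10 in LKO, so there the genotypes overlapped.

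**Figure D2:**
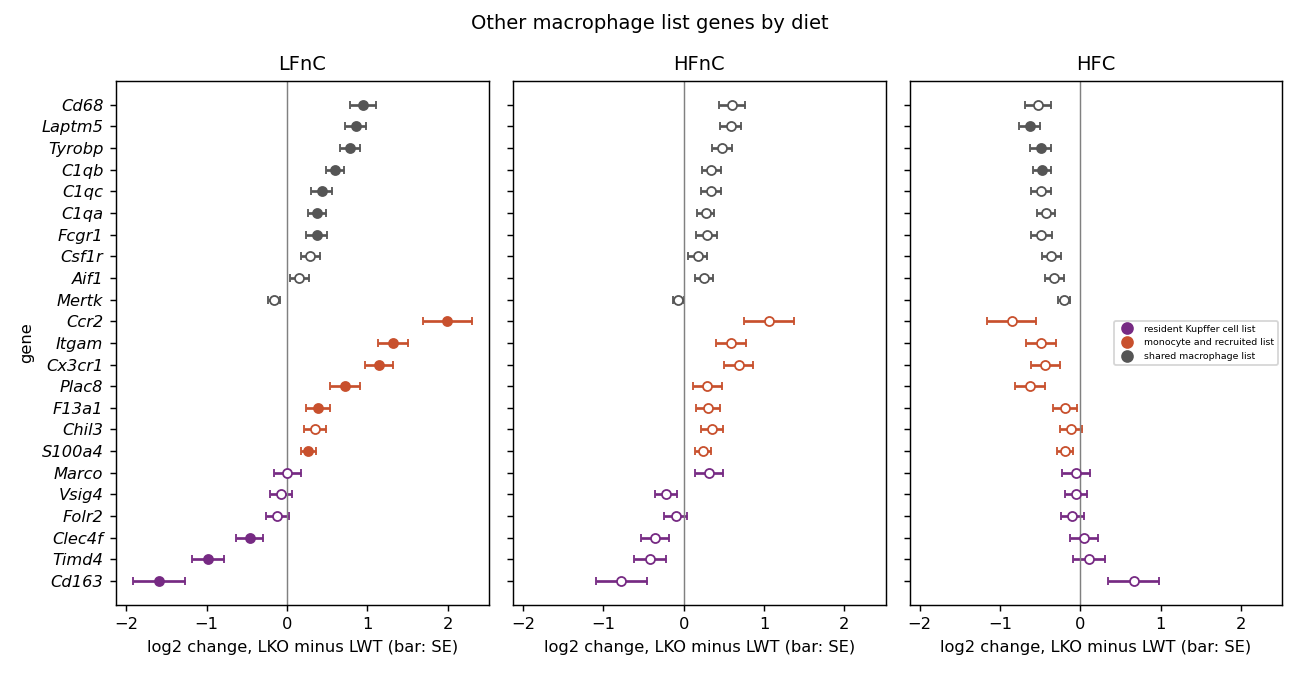
Change between LKO and LWT on the log2 scale (horizontal axis, bar: SE) for 23 macrophage genes besides the 5 members (vertical axis), in a panel for each diet. Filled points are called, and colours mark the resident, the recruited and the shared list. On LFnC Cd163, Timd4 and Clec4f lie left of 0 and Ccr2, Itgam and Cx3cr1 right of it, and on HFC all 10 shared genes lie left of 0.

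**Figure D3:**
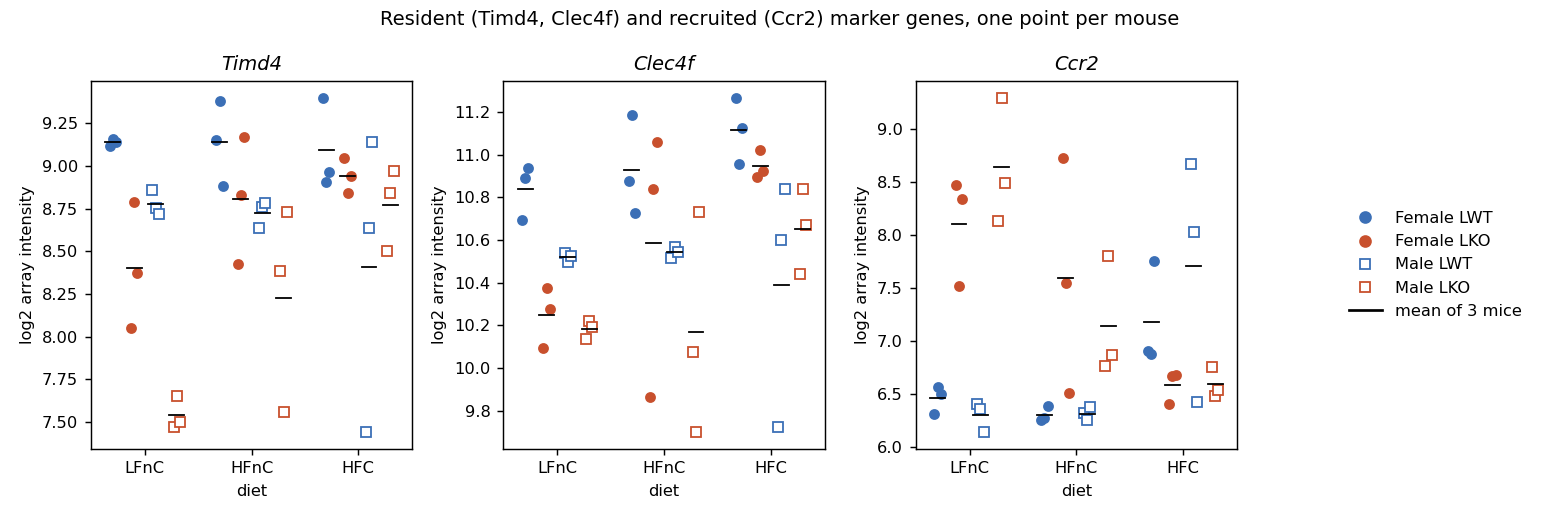
Log2 array intensity (vertical axes) of Timd4, Clec4f and Ccr2 by diet (horizontal axes), 1 point per mouse, with symbols for sex and genotype and a bar at the mean of 3 mice. Ccr2 stays at or below 6.56 in every LWT liver on LFnC and HFnC, and among HFC male LWT mice replicate 1 has the highest Ccr2 (8.67) with the lowest Timd4 (7.44).

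Genes that work with the members were read alongside. The counts here stand beside 33.4% of all genes called on LFnC in either direction. Around Cd14, 2 of 8 measured genes of endotoxin sensing rose on LFnC and 1 fell, a share close to that background. Tlr2 rose by 0.94 and Ly96, the partner of Tlr4, by 0.21, while the adaptor Ticam1 fell by 0.21. Tlr4 itself was at 0.22 (adjusted p = 0.118) and Lbp, the plasma protein that brings endotoxin to Cd14, at 0.22 (adjusted p = 0.168), neither of them called. Around Ctss, 7 of 13 cathepsins and cystatins rose and 1 fell. The cysteine protease inhibitor Cstb rose by 1.23, legumain (Lgmn) by 0.67 and cathepsin D (Ctsd) by 0.50, and cathepsin F (Ctsf) fell by 0.28.

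All 6 measured genes of class II presentation rose on LFnC (median 0.94), among them H2-Ab1 by 1.09 and Cd74, the invariant chain that Ctss cuts, by 0.91. Of 7 measured transcription factors of macrophages 4 rose and 1 fell, against 33.4% of all genes called in either direction. Spi1, which encodes PU.1, rose by 0.70 and Nr1h3, which encodes the oxysterol receptor LXR alpha, fell by 0.24. Of 10 chemokines and growth factors that act on monocytes 5 rose and none fell, Ccl2 by 2.04, Ccl3 by 1.69 and Csf1 by 0.59 among them.

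Markers of other cell types were read in the same comparison, in which 33.4% of all genes were called in either direction. Of 10 neutrophil markers 5 rose and none fell, led by Cxcr2 at 1.86, while the granule and surface genes Mpo and Ly6g were at -0.12 and 0.02 and averaged 6.82 and 6.10 over the 36 arrays. The centred level of the neutrophil list ran from -0.21 to 0.16 in LWT and from 0.16 to 0.66 in LKO. Of 7 dendritic cell markers 3 rose and of 10 T, B and NK cell markers 2 rose, with none lower in either list. Of all 19664 genes 2787 rose. All 6 measured ductular markers rose (level from -0.50 to -0.10 in LWT and from 0.81 to 1.54 in LKO), as did 6 of 9 stellate cell and matrix genes. Of 7 endothelial markers 2 fell and none rose, against 3788 of all 19664 genes that fell. The part of these markers in the changes of Lyz2, Cd14 and Ctss was not tested.

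On HFnC none of the 5 members was called, and of all genes 0.0203% were. All 5 values were above 0, however, and 4 of 5 had an unadjusted p under 0.05 in limma. Lyz2 was at 0.82 (SE 0.20, adjusted p = 0.122), Cd14 at 0.84 (SE 0.25, adjusted p = 0.190) and Ctss at 0.66 (SE 0.20, adjusted p = 0.194). Adgre1 was at 0.30 and Cd5l at 0.18.

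The LKO livers differed among themselves on HFnC. Cd14 read 7.05, 7.22 and 7.61 (lowest, median, highest) in LWT and 7.45, 7.91 and 9.56 in LKO. LKO females were at 9.56, 8.05 and 7.45, so replicate 1 was high and replicate 3 lay within the LWT range. Ccr2 followed the same order in those 3 mice, at 8.73, 7.55 and 6.51. Lyz2 ran from 10.6 to 11.4 in LWT and from 11.2 to 12.3 in LKO, with 5 of 6 LKO livers above all LWT livers. Without replicate 3 of the HFnC female LKO mice, Cd14 was called at 1.07 (adjusted p = 0.0274) and Lyz2 at 0.92 (adjusted p = 0.0288).

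The exact permutation tests within sex gave unadjusted p = 0.005 for Lyz2, 0.01 for Ctss and 0.01 for Cd14 on HFnC, among 15 such tests. They gave 0.045 for Adgre1 and 0.125 for Cd5l. For the other lists, none of the resident, recruited, scar associated or shared macrophage genes was called on HFnC. The 7 recruited markers were all above 0 (median 0.35), and 5 of 6 resident markers were below 0 (median -0.29).

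Fat content was compared within each genotype (HFnC minus LFnC). In LWT livers no member was called, nor did any have an unadjusted p under 0.05, against 0.188% of all genes called. The values ran from -0.21 for Lyz2 to -0.002 for Ctss, and those of Ctss and Adgre1 turned above 0 with arrays centred on their medians. In LKO livers Cd14 fell by 1.41 (SE 0.25, adjusted p = 0.00237) and Lyz2 by 0.77 (SE 0.20, adjusted p = 0.03), while 5.04% of all genes were called. Ctss was at -0.50 (adjusted p = 0.133), Adgre1 at 0.002 and Cd5l at 0.10.

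The Lyz2 call in LKO was lost in 7 of the 12 fits that left out 1 LKO mouse, and the adjusted p over these fits ran from 0.00681 to 0.125. Those mice were replicates 1 and 3 of the LFnC females, 2 and 3 of the LFnC males, 2 and 3 of the HFnC females and 1 of the HFnC males, and the change without them lay between -0.77 and -0.65. The Cd14 call held in all 12 (changes from -1.71 to -1.18). Fitted on the LKO arrays of the compared diets alone, Cd14 had an adjusted p of 0.0808 and Lyz2 of 0.102.

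Whether the genotype difference itself changed between LFnC and HFnC was tested as the genotype by fat term. For it 0% of all genes were called, 0 of 19664, with 4270 at an unadjusted p under 0.05, and no member was called in limma. Leaving out 1 mouse at a time gave 0 to 806 called genes, with 806 without replicate 1 of the HFnC female LKO mice. Cd14 was at -1.21 (SE 0.35, adjusted p = 0.124) and alone among the 5 had an unadjusted p under 0.05. Without that liver, the one with the high Cd14, its term was -1.51 with an adjusted p of 0.00568. Lyz2 was at -0.56 and Ctss at -0.50, and Adgre1 and Cd5l lay at 0.03 and 0.15.

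Dietary cholesterol (HFC minus HFnC) was followed by higher values of 4 of the 5 members in LWT livers, against 4.67% of all genes called. Lyz2 rose by 1.00 (SE 0.20, adjusted p = 0.00375), Ctss by 0.97 (SE 0.20, adjusted p = 0.00384), Adgre1 by 0.70 (SE 0.13, adjusted p = 0.00181) and Cd5l by 0.64 (SE 0.10, adjusted p = 0.000195). Cd14, at 0.68 (SE 0.25, adjusted p = 0.124), was not called.

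In LWT livers on HFC, Adgre1 ran from 10.1 to 10.7 with a median of 10.4, against 9.35 to 10.4 with a median of 9.67 on HFnC. Cd5l ran from 11.2 to 11.8 (median 11.5) on HFC, against 10.3 to 11.2 (median 10.9) on HFnC. Of the 6 LWT livers on HFC, 5 lay above every LWT liver on HFnC for Cd5l and 3 for Adgre1. Cd5l, which was not called for the genotype on any diet, had the smallest adjusted p of the 5 in this comparison.

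For Lyz2, Ctss and Cd14 the rise in LWT was uneven between mice. Male LWT mice on HFC read 12.6, 12.2 and 11.3 for Lyz2, 11.4, 10.6 and 9.92 for Ctss and 8.73, 8.23 and 7.28 for Cd14 (replicates 1 to 3). Replicates 1 and 2 were high and replicate 3 was close to the LKO level in each gene. Female LWT mice on HFC read 11.5, 11.6 and 12.6 for Lyz2, with replicate 3 the high one. In the high male mice the centred level of the scar associated list was 1.98 and 1.195, against -0.64 in replicate 3, and that of the matrix list 1.18 and 0.55, against -0.41. Replicate 1 also had the lowest resident level of the 6 LWT mice on HFC, at -0.85.

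Without those 2 male arrays, which leaves 1 HFC male LWT mouse assumed to vary like the other groups, Cd5l was still called in LWT (0.54, adjusted p = 0.0367). Adgre1 was at 0.65 (adjusted p = 0.0815), Ctss at 0.61 (adjusted p = 0.272), Lyz2 at 0.63 (adjusted p = 0.316) and Cd14 at 0.28 (adjusted p = 0.949), none of them called. Over all genes 51 were then called in place of 918. Without replicate 3 of that group instead, Cd14 was called as well (0.88, adjusted p = 0.018).

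Among the other lists, 9 of 10 shared macrophage genes and all 6 class II genes rose with cholesterol in LWT, with medians of 0.58 and 1.01. Of the 7 recruited markers 3 rose, Ccr2 by 1.13 (SE 0.31, adjusted p = 0.0278) among them, and 5 of 6 scar associated genes rose. None of the 6 resident markers other than Cd5l was called in limma (median 0.05). Cd163 was at -0.98 (adjusted p = 0.0775), Timd4 at -0.18 and Clec4f at 0.02. T, B and NK cell markers rose in 6 of 10 cases and dendritic cell markers in 4 of 7, and their part in the members' rise was not tested.

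In LKO livers the same change of diet gave no call among the 5, against 1.01% of all genes. Lyz2 was at -0.37, Ctss at -0.45 and Cd14 at -0.68 (adjusted p = 0.397, 0.29 and 0.182), Adgre1 at -0.07 and Cd5l at 0.19. Ctss and Cd14 had an unadjusted p under 0.05 in limma. Without replicate 3 of the HFnC female LKO mice, Cd14 was called as lower (-0.91, adjusted p = 0.0322).

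The LKO livers on HFC were alike in Lyz2, Ctss and Cd14. Cd5l spread more widely, from 10.99 to 11.5 in LKO and from 11.2 to 11.8 in LWT. Lyz2 lay between 11.2 and 11.5, Ctss between 9.76 and 9.92 and Cd14 between 7.26 and 7.61 in all 6 LKO livers. Their LWT littermates spanned 11.3 to 12.6, 9.92 to 11.4 and 7.28 to 8.73. Every LKO liver was below every LWT liver for Adgre1, which ran from 9.74 to 10.06 in LKO and from 10.14 to 10.7 in LWT. The same held for Ctss by the smallest of margins, since the highest LKO liver was at 9.919 and the lowest LWT liver at 9.921. The share of all genes separated like this on HFC was not counted.

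For the genotype on HFC no member was called in limma, against 1.00% of all genes, although all 5 were below 0 with an unadjusted p under 0.05. Ctss was at -0.76 (SE 0.20, adjusted p = 0.0582), Adgre1 at -0.46 (SE 0.13, adjusted p = 0.0727), Cd5l at -0.27 (SE 0.10, adjusted p = 0.168), Lyz2 at -0.54 (SE 0.20, adjusted p = 0.187) and Cd14 at -0.52 (SE 0.25, adjusted p = 0.318). The exact permutation test within sex gave unadjusted p = 0.005 for Ctss and Adgre1, the smallest it can give, 0.03 for Cd5l, 0.05 for Cd14 and 0.08 for Lyz2.

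Single LWT mice decided these calls. Without HFC male LWT replicate 3, Ctss was at -0.94 (adjusted p = 0.00263), Lyz2 at -0.73 (adjusted p = 0.0161), Adgre1 at -0.49 (adjusted p = 0.0238) and Cd5l at -0.32 (adjusted p = 0.0403), and all 4 were called. Without HFC female LWT replicate 2, Adgre1 (-0.54, adjusted p = 0.0364) and Ctss (-0.83, adjusted p = 0.0419) were called. Without male replicates 1 and 2 the values shrank to -0.39 for Ctss, -0.42 for Adgre1, -0.17 for Cd5l, -0.18 for Lyz2 and -0.13 for Cd14, and none was called.

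Of the 10 shared macrophage genes all were below 0 on HFC and 3 fell, Laptm5 by 0.63, Tyrobp by 0.50 and C1qb by 0.48. Cd74 was at -0.72. Of the chemokines Ccl3 fell by 1.29 and Ccl5 by 1.01. None of the resident, recruited or scar associated genes was called, and 3 of the 6 resident markers were above 0.

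The test of whether the genotype difference changed between HFnC and HFC, the genotype by cholesterol term, called all 5 members as lower, against 5.78% of all genes. Ctss was at -1.42 (SE 0.28, adjusted p = 0.00392), Lyz2 at -1.37 (SE 0.29, adjusted p = 0.00548), Cd14 at -1.36 (SE 0.35, adjusted p = 0.0212), Adgre1 at -0.76 (SE 0.18, adjusted p = 0.0127) and Cd5l at -0.45 (SE 0.14, adjusted p = 0.047). The term is the LKO minus LWT difference on HFC less that on HFnC. In every gene it joined a value above 0 on HFnC to a value below 0 on HFC.

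The calls were read again without livers that stood apart. Without the HFC male LWT replicates 1 and 2, which were picked because earlier results of these data showed them standing apart, and which leave 1 male LWT mouse on HFC, none of the 5 was called, at -1.05 for Ctss (adjusted p = 0.0616), -1.002 for Lyz2 (adjusted p = 0.109), -0.72 for Adgre1 (adjusted p = 0.116), -0.97 for Cd14 (adjusted p = 0.307) and -0.35 for Cd5l (adjusted p = 0.416). Over all genes 106 were then called in place of 1136. Leaving out 1 mouse at a time, Ctss, Lyz2 and Adgre1 kept the call in all 24 fits. Cd14 lost it without HFC male LWT replicate 1 (-1.201, adjusted p = 0.0557). Cd5l lost it in 15 of 24 fits, from every one of the 8 groups on HFnC and HFC, with adjusted p from 0.0142 to 0.103 over the 24. It also lost it with each array centred on its median (-0.34, adjusted p = 0.0874).

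The lists differed in their counts under this term, and no test compared them. All 6 class II genes, 8 of 10 shared genes, 5 of 6 scar associated genes and 4 of 7 recruited markers were called as lower. Of the 6 resident markers none was called in limma, 4 were above 0 and the median was 0.28, with Cd163 at 1.44 (SE 0.45, adjusted p = 0.0577). Dendritic cell markers were lower in 5 of 7 cases and T, B and NK cell markers in 6 of 10. Of the other lists, 2 of 13 cathepsins and cystatins, 2 of 8 endotoxin sensing genes and 2 of 10 neutrophil markers were lower, and none of the 6 ductular or 7 endothelial markers was called in limma. Acinar genes had a median of -2.32 with none called. With the acinar level added to the fit, the call held for Ctss, Lyz2, Cd14 and Adgre1, and Cd5l was at -0.42 (adjusted p = 0.0962).

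**Figure D4:**
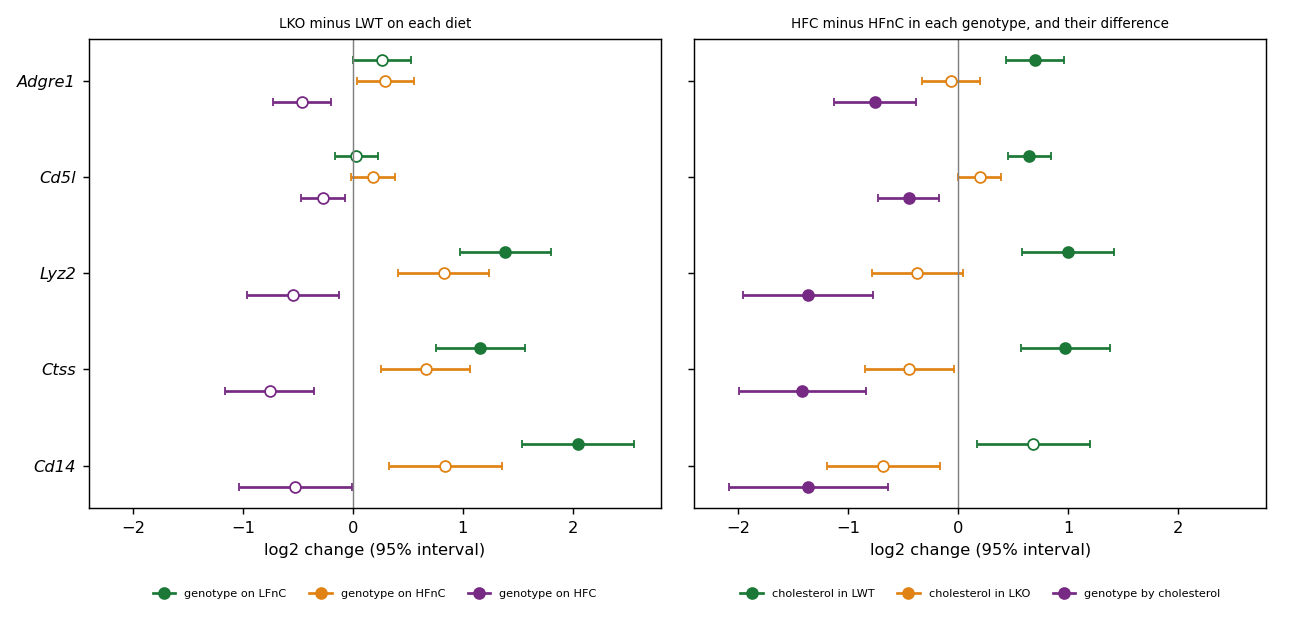
Log2 change with its 95% interval (horizontal axes) for each of the 5 genes (vertical axis). On the left is LKO minus LWT on each diet, and on the right HFC minus HFnC in each genotype with the genotype by cholesterol term. Filled points are called, as are all 5 genes in the genotype by cholesterol term and 4 of 5 for cholesterol in LWT.

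Sex entered mainly through Cd5l and Adgre1. Cd5l was higher in females in LWT, by 0.39 (SE 0.08, adjusted p = 0.00203), and in LKO, by 0.32 (SE 0.08, adjusted p = 0.0127). Of all genes 6.40% were called for sex in LWT and 5.52% in LKO. On LFnC LWT females read 10.9, 11.3 and 11.02 for Cd5l and LWT males 10.5, 10.8 and 10.7. On HFnC the ranges were 11.01 to 11.2 in LWT females and 10.3 to 10.7 in LWT males, so on both diets the sexes were separate in LWT. On HFC they overlapped, at 11.3 to 11.8 in LWT females and 11.2 to 11.5 in LWT males. In LKO they were separate on LFnC (11.07 to 11.2 in females and 10.5 to 10.8 in males) and overlapped on HFnC (10.99 to 11.2 and 10.6 to 11.1) and on HFC (11.1 to 11.5 and 10.99 to 11.2).

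Adgre1 was higher in LWT females by 0.35 (SE 0.11, adjusted p = 0.0413). The call was lost in 11 of 18 fits that left out 1 LWT mouse (adjusted p from 0.0136 to 0.107), from every one of the 6 LWT groups. Pancreatic acinar genes were also higher in LWT females, in 5 of 7 cases with a median of 2.61, as were 4 of 7 endothelial markers. With the acinar level added to the fit, Adgre1 was at 0.40 (adjusted p = 0.0901) and no longer called, Cd5l was at 0.35 (adjusted p = 0.0385), and 519 genes were called in place of 1259. In LKO none of the 7 acinar genes was called for sex (median -0.05). In LKO the sex difference of Adgre1 was 0.03 (adjusted p = 0.939). Lyz2, Ctss and Cd14 were not called for sex in either genotype. Cd14 in LKO was at 0.50 (adjusted p = 0.171), and it was called without replicate 3 of the HFnC female LKO mice (0.65, adjusted p = 0.0346).

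Whether the genotype difference depended on sex was tested over all diets and on HFC. Over all diets no member was called in limma, against 0.0712% of all genes, and Adgre1 alone, at -0.32 (adjusted p = 0.486), had an unadjusted p under 0.05. On HFC 0% of genes were called, 0 of 19664 with 817 at an unadjusted p under 0.05, and no member was called or had an unadjusted p under 0.05. The 5 members ran from 0.02 for Cd5l to 0.35 for Cd14, and all 5 turned below 0 without the HFC male LWT replicates 1 and 2. Of the resident markers 3 of 6 were higher in females in LWT and 2 of 6 in LKO, while none of the 7 recruited markers was called for sex.

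Ordered by group mean, the 5 genes gave 2 kinds of ranking. For Cd14, Lyz2 and Ctss the LFnC LKO males and females were among the top 3 groups, and LWT males on HFnC and LFnC were the lowest 2 of the 12. For Adgre1 and Cd5l the HFC LWT females and males came on top, with LWT males on LFnC and HFnC again lowest. Means ran from 7.16 to 9.96 for Cd14, from 10.9 to 12.8 for Lyz2, from 9.36 to 10.9 for Ctss, from 9.46 to 10.4 for Adgre1 and from 10.5 to 11.6 for Cd5l. Neighbours in these orders overlapped in their 3 values, apart from the top group of Cd14 (LFnC LKO females) and 2 steps of Ctss.

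Across the 36 arrays Lyz2 and Ctss ran closely together (Pearson r = 0.945, and 0.908 once each group's mean was taken off). Cd14 followed them less closely, with 0.820 to Lyz2 and 0.764 to Ctss. Adgre1 lay between the groups, with 0.715 to Ctss, 0.668 to Cd5l and 0.279 to Cd14. Cd5l had 0.241 to Lyz2 and 0.087 to Cd14. These are descriptions over arrays that share groups, batches and the cell content of each liver.

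**Figure D5:**
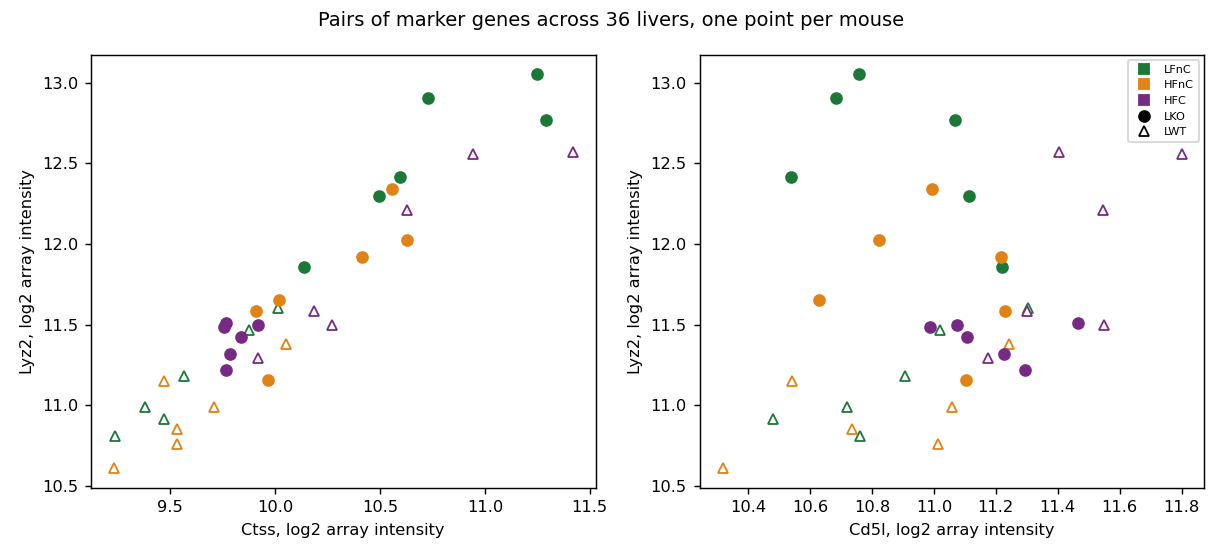
Lyz2 against Ctss (left) and Lyz2 against Cd5l (right) in 36 livers, log2 array intensity on each axis, 1 point per mouse, with colour for diet, circles for LKO and triangles for LWT. Lyz2 and Ctss form a narrow band (r = 0.945), while Lyz2 and Cd5l do not (r = 0.241).

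The genes most like each member were found by Pearson r with all other genes over the 36 arrays. For Adgre1 they were Csf1r (0.902), C1qa (0.890), Ifi205, C1qc and Tlr7. For Cd5l they were Scimp (0.860), Cd86, Sdc3, Tmem26 and Klrk1, the last at 0.794. Lyz2 was closest to Ms4a7 (0.956), C3ar1, Cybb, Ctss and Myof, and Ctss to Sirpa (0.969), Ms4a6c, Nckap1l, Laptm5 and Ms4a7. Cd14 stood with the chemokine Ccl2 (0.958), Slco3a1, Slc25a24, Tspan8 and Car13. Over all genes the 95th percentile of r was 0.382 for Cd5l, 0.495 for Adgre1, 0.746 for Lyz2, 0.750 for Ctss and 0.780 for Cd14.

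After the group means were taken off, Csf1r was again the closest to Adgre1 (0.926) and C1qc and C1qa were again among its nearest 5. Sdc3, Scimp and Tmem26 stayed among those of Cd5l, at 0.689, 0.617 and 0.614. For Lyz2 and Ctss, Axl, a receptor for coated dying cells, was at 0.926 and 0.961. None of the 5 nearest genes of Cd14 was the same, Apaf1 (0.921) being the closest.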

How the data were processed

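Mouse liver RNA on 36 Affymetrix arrays was analysed from the authors' deposited log2 values, which come from RMA per the submitters' processing notes. The sources used here do not state its settings, annotation or a batch correction. The table had 35556 rows, 9856 of them without a value on any array. Of the 25700 others, 20781 carried 1 gene symbol in the probe table, 235 several and 4684 none. Each gene took its single-symbol row with the highest mean, which left 19664 genes. Values ran from 3.04 to 14.4.

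All arrays were fitted with 12 group means in limma 3.58.1 (R 4.3.3, plain empirical Bayes), contrasts weighing groups equally, with Benjamini-Hochberg adjustment over all genes and calls under 0.05. In simulated data, changes of 0.5, 1 and 1.5 (log2) in genotype on LFnC were set in 66, 67 and 67 genes among 19664. They were recovered in 84.8%, 97% and 100% of these, with 12 false calls. The simulated noise was normal and independent between genes, and no other gene changed, unlike in the real livers. These rates therefore check the fit and are not its power in these data. The limma p-values set each change against the spread between these mice, pooled over the 12 groups. A list's level averages its genes after each was centred on its mean over all arrays.

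The members, 17 lists of genes and 14 comparisons were chosen with earlier results of these data known. Some list genes were set for naming whatever their values. The others were picked by role, by p-value or by size of change, so they do not stand for their lists. Nearest genes were the 5 with the highest r. Alternatives were a replicate block, median centring, quantile normalization, leaving out dim genes (mean under 7.81), every row with values, trend and robust moderation, an acinar covariate, compared groups alone, leaving out mice, single batches and exact permutation. The batch label equals the replicate number, so it served as the block. Deviations from group means of same-numbered arrays correlated at a median of 0.02, and 56 of 198 pairs were over 0.1. Promoters come from RefSeq.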

Additional observations from a re-analysis of the deposited data

Results flagged for a closer look

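The genotype difference changed between the cholesterol-free and the cholesterol-containing high-fat diet for all 5 genes, by a test of the difference itself. The genotype by cholesterol term in limma was -0.76 for Adgre1, -0.45 for Cd5l, -1.37 for Lyz2, -1.42 for Ctss and -1.36 for Cd14. With HFC male LWT replicates 1 and 2 left out, the values were -0.72, -0.35, -1.002, -1.05 and -0.97 in the same order and none was called.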

How the results depend on the processing

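Of 1785 tested values of the 70 member results under other settings or with 1 mouse left out, 1652 kept their sign and their side of the threshold. Most of the 1785 came from fits that left out 1 mouse, which share nearly all their arrays. A result that was not called and stayed so also counts as kept. The replicate block for batch, quantile normalization and trend with robust moderation changed no call or sign of the 70. With the block 93 genes were called on HFC in place of 197, and Lyz2 on LFnC was at 1.39 (adjusted p = 5.42e-05). Centring arrays on their medians turned Cd5l on LFnC (-0.033) and, for fat in LWT, Adgre1 (0.003) and Ctss (0.032), and took the genotype by cholesterol call of Cd5l (-0.34), as did every row with values (-0.45), the acinar covariate (-0.42) and compared groups alone (-0.45). The sex call of Adgre1 in LWT was lost with median centring (0.34), the acinar covariate (0.40), compared groups alone (0.35) and without HFC male LWT replicates 1 and 2 (0.38). Compared groups alone also took the calls of fat in LKO for Lyz2 (-0.77) and Cd14 (-1.41) and of cholesterol in LWT for Lyz2 (1.00) and Ctss (0.97). Without dim genes Ctss was called on HFC (-0.76). Without HFC male LWT replicates 1 and 2, Lyz2 was called on HFnC (0.82), and calls were lost for genotype by cholesterol in Adgre1 (-0.72), Cd5l (-0.35), Lyz2 (-1.002), Ctss (-1.05) and Cd14 (-0.97) and for cholesterol in LWT in Adgre1 (0.65), Lyz2 (0.63) and Ctss (0.61). Genotype by sex on HFC then turned for Adgre1 (-0.028), Cd5l (-0.18), Lyz2 (-0.64), Ctss (-0.58) and Cd14 (-0.44). Exact permutation within sex was adjusted by Benjamini-Hochberg over its 15 tests and not over all genes. So adjusted, it put Adgre1 (-0.46) and Ctss (-0.76) on HFC and Lyz2 (0.82), Ctss (0.66) and Cd14 (0.84) on HFnC past the threshold. Single batches, with 1 mouse a group and no test, moved 24, 14 and 7 of the 70 results in batches 1, 2 and 3 by more than the spread between mice. Batch 1 moved Cd5l (0.36) and Cd14 (1.32) on HFnC, genotype by cholesterol of Cd5l (-0.70), Ctss (-1.87) and Cd14 (-2.05), Cd14 for fat in LKO (-0.76) and Ctss for cholesterol in LWT (1.38). Batch 2 moved Adgre1 on HFC (-0.19), by cholesterol (-0.44) and for cholesterol in LWT (0.35). Genotype by sex on LFnC was of the other sign in batch 1 for Adgre1 (0.38), Lyz2 (0.092) and Ctss (0.60) and in batch 2 for Cd14 (-0.61), and on HFC in batch 3 for Adgre1 (-0.29), Cd5l (-0.74), Lyz2 (-1.16), Ctss (-0.97) and Cd14 (-0.86). The causes were not tested.

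Leaving out 1 mouse at a time changed a call or a sign in these results. For Cd5l the values ran from -0.012 to 0.088 on LFnC, from -0.33 to -0.21 on HFC, from -0.51 to -0.39 by cholesterol, from -0.099 to 0.009 for fat in LWT, and for genotype by sex from -0.034 to 0.16 on LFnC and from -0.11 to 0.14 on HFC. For Adgre1 they ran from -0.54 to -0.41 on HFC, from -0.034 to 0.13 by fat, from -0.13 to 0.033 for fat in LWT, from -0.066 to 0.084 for fat in LKO, from 0.28 to 0.41 for sex in LWT, from -0.026 to 0.081 for sex in LKO and from -0.084 to 0.18 for genotype by sex on HFC. For Lyz2 they ran from 0.72 to 0.94 on HFnC, from -0.73 to -0.37 on HFC, from -0.88 to -0.65 for fat in LKO, from -0.14 to 0.010 for sex in LKO and from -0.18 to 0.46 for genotype by sex on HFC. For Ctss they ran from -0.94 to -0.57 on HFC, from -0.074 to 0.055 for fat in LWT, from -0.16 to 0.030 for sex in LKO and from -0.22 to 0.53 for genotype by sex on HFC. For Cd14 they ran from 0.54 to 1.07 on HFnC, from -1.59 to -1.06 by cholesterol, from 0.52 to 0.88 for cholesterol in LWT, from -0.91 to -0.38 for cholesterol in LKO, from -1.51 to -0.98 by fat, from -0.025 to 0.22 for sex in LWT and from 0.30 to 0.65 for sex in LKO.

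The number of genes called among all 19664 also moved. Other settings gave 3517 (dim genes left out) to 9982 (median centring) for genotype on LFnC in place of 6575, 106 to 2285 for genotype by cholesterol in place of 1136, 51 to 1157 for cholesterol in LWT in place of 918, 72 to 1510 for fat in LKO in place of 991, 0 to 67 on HFnC in place of 4, 0 to 179 on HFC in place of 197, 111 to 456 for cholesterol in LKO in place of 198, 35 to 74 for fat in LWT in place of 37, 519 to 1375 for sex in LWT in place of 1259, 1 to 20 for genotype by sex in place of 14, 0 to 32 for it on LFnC in place of 0, and 0 to 21 for genotype by fat in place of 0. Leaving out 1 mouse gave 4090 (LFnC male LKO replicate 2) to 7210 on LFnC, 1 to 1933 (HFC male LWT replicate 3) on HFC, 592 to 2746 by cholesterol and 398 to 2197 for cholesterol in LWT (lowest without HFC male LWT replicate 1, highest without replicate 3), 4 to 298 on HFnC and 98 to 668 for cholesterol in LKO (highest without HFnC female LKO replicate 3), 0 to 806 by fat and 167 to 2650 for fat in LKO (highest without HFnC female LKO replicate 1), 13 to 61 for fat in LWT, 1 to 42 for genotype by sex and 0 to 2 for it on LFnC and on HFC. With 3 mice a group, 1 or 2 livers can decide a call.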
